A study of Mus musculus with 4 samples.

Results

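The 10 genes followed here are ones that macrophages use to recognise and take up dying cells and modified lipoproteins, read in an m6A map of Mettl3-deficient and Mettl3-competent mouse macrophages. They are Mertk, Axl, Tyro3, Gas6, Mfge8, Msr1, Marco, Cd36, Mrc1 and Trem2, chosen by gene symbol with earlier results of these data known, and they are 10 of the 14798 genes with an m6A peak in either genotype. They held 28 of the 38697 peaks of the cKO list, 26 of the 36507 peaks of the WT list and 12 of the 10355 peaks that the authors list as differential, and 7 of them are among the 7307 genes with an input FPKM. The cKO macrophages came from C57BL/6 mice with loxP-flanked Mettl3 alleles and LysM-cre (genotype LysM-cre, Mettl3fl/fl). The WT macrophages came from C57BL/6 mice with the loxP-flanked alleles only (Mettl3fl/fl). The Cre is expressed under control of lysozyme M, a gene of macrophages and neutrophils, so the deletion arises in myeloid cells as they mature and need not reach every cell. In both genotypes bone marrow cells were grown for 7 days with M-CSF, the macrophage growth factor, and then kept for 24 h with mouse colon carcinoma cells of the MC38 line. The labels name no step that parted the macrophages from the MC38 cells, and they give no age or sex of the mice. Each genotype has 1 library of fragments bound by an m6A antibody (IP) and 1 library of unselected fragments (input), so each value stands for 1 library or 1 library pair and no spread between cultures is known.

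Mertk, Axl and Tyro3 are the TAM family of receptor tyrosine kinases. Gas6 is a soluble ligand that bridges them to phosphatidylserine on dying cells, and Mfge8 does the same for integrins. Msr1 and Marco are class A scavenger receptors, Cd36 is a class B scavenger receptor for oxidised lipoproteins and fatty acids, Mrc1 is the mannose receptor, and Trem2 binds lipids and signals through the adaptor Tyrobp. Mettl3 is the catalytic subunit of the complex that methylates adenosines in messenger RNA, mostly near stop codons and in 3' UTRs, within the DRACH sequence consensus. The m6A mark can shorten the life of a transcript or change its translation.

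The sites at which such a mark could lie are shown for peaks that the results turn on and that held the motif searched. Their values can thus be read beside a sequence. The motif searched was GGAC followed by any base but G, on the transcript strand only, which is part of the DRACH consensus. The motif is in capitals, with 12 bases on either side, 5' to 3', from GENCODE M21 transcripts on mm10.
Mertk, 3' UTR: gagttcatggccGGACAgcaccaggtgaa
Mertk, coding: tgtcttaccggaGGACAgactcaccaaaa
Tyro3, coding: gtccaccagccaGGACCccttgtacatca
Tyro3, 3' UTR: tggcgcctggacGGACCaaattgcccaat
Axl, 3' UTR: gttctgaagtgtGGACTctggtgcctcca
Cd36, middle 3' UTR: cacccaaaaaaaGGACTggtttctaacat
Cd36, 3' UTR near the stop codon: ttgcaactgagtGGACTtcaatttctgta
Trem2, 3' UTR: cttctgcactttGGACAttaaacattctc
Mfge8, 3' UTR: aggttggctgtgGGACCtctgctggcttg
Msr1, coding: aaagcaacaggaGGACAtcagtaaattgg
Marco, coding: gaacagtttgtgGGACTgcagtaagaact
The motif adenosines lie on mm10 at chr2:128802129 and chr2:128801546 (Mertk), chr2:119816763 and chr2:119817176 (Tyro3), chr7:25757325 (Axl), chr5:17782407 and chr5:17783052 (Cd36), chr17:48352249 (Trem2), chr7:79133833 (Mfge8), chr8:39620063 (Msr1) and chr1:120474729 (Marco), in the order of the sequences, on the strands of the genes given below.

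Of the member peaks with exonic sequence in the authors' transcript, 19 of 25 held the motif in the cKO list (76.0%) and 18 of 25 in the WT list (72.0%), against 62.0% and 62.5% of all such peaks in the cKO and WT lists. The member peaks had 4.57 motifs per kb in the cKO and 4.26 in the WT, and all peaks had 3.86 and 3.90. These shares are a description. Peaks of a gene share a transcript, and a match shows letters, not a methylated base.

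The targeted gene did not check the labels. Mettl3 had 4 cKO and 2 WT peaks, 0 listed differential peaks and 0 input values, and a peak in its RNA does not test the deletion. All 10 macrophage markers (among them Csf1r, Adgre1 and Lyz2) had a peak in both lists. The 8 with an input value summed to 3348 FPKM in the cKO and 4907 FPKM in the WT. Of these sums Lyz2 gave 1980 FPKM in the cKO and 3393 FPKM in the WT. Lyz2 was the only 1 of the 8 that lay past 1.5-fold, and the other 7 stayed within that limit. Lyz2 is the lysozyme M gene, under whose control the Cre is expressed, and only the cKO mice carried the Cre. For Lyz2, and thus for these sums, the Cre allele and the loss of Mettl3 cannot be told apart. Mesenchymal markers, 8 of 11 with a value, summed to 200.9 FPKM in the cKO and 113 FPKM in the WT, and 3 of the 6 with a mean of at least 1 FPKM were at least 1.5-fold higher in the cKO. Here and below, folds past 1.5 are counted on values of FPKM + 1, which makes those of low genes smaller than the plain ratio. Of the 8 epithelial markers, 4 had a peak in each list and only Krt19 had an input value, at 10.8 FPKM in the cKO and 7.05 FPKM in the WT. Fibroblasts and tumour cells can also express Axl, Gas6 and Mfge8. Of 7 neutrophil markers 2 had an input value, with sums of 22.0 FPKM in the cKO and 21.6 FPKM in the WT, and of 7 dendritic cell markers 1 had a value, at 1.29 FPKM in the cKO and 1.53 FPKM in the WT. Of the 6 stress and RNA quality genes with a value, 3 lay above and 1 below the 1.5-fold limit in the cKO. Those above were Hspa1a (4.27 FPKM in the cKO, 1.59 FPKM in the WT), Hspa1b and Malat1. Neat1 lay below (64.1 FPKM in the cKO, 163.2 FPKM in the WT). Of all 6079 genes with a mean of at least 1 FPKM, 1.46% lay above and 1.66% below, to be read beside each of these marker counts. The part of these other cells and of RNA quality in the values below was not tested, and in bulk RNA fewer cells of a type and less RNA per cell cannot be told apart. Read totals were not analysed here, and depth is therefore unknown for every value.

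The first question is where these transcripts carried m6A peaks and whether Mettl3-deficient macrophages kept them. All 10 genes had a peak in the WT and 9 had a peak in the cKO, with Tyro3 the exception. The 3' UTRs held 14 of 28 peaks in the cKO (50.0%) and 16 of 26 in the WT (61.5%), against 55.7% of all cKO peaks and 56.2% of all WT peaks. Exonic peaks outside UTRs numbered 11 in the cKO (39.3%) and 7 in the WT (26.9%), against 22.7% of all cKO peaks and 22.9% of all WT peaks. Of the cKO member peaks 21 (75%) overlapped a WT peak, against 71.3% of all cKO peaks, and of the WT member peaks 21 (80.8%) overlapped a cKO peak, against 73.2% of all WT peaks. An overlap of at least 50% of both peaks left 14 peaks in each list, or 50.0% in the cKO and 53.8% in the WT, against 46.1% of all cKO peaks and 48.8% of all WT peaks. The enrichment of a peak is the authors' log2 of IP over input. Its median over member peaks was 1.14 in the cKO and 0.97 in the WT, and over all peaks it was 1.30 and 1.22. How IP was scaled to input is not given in the sources used here, so a loss shared by all sites need not show in these values.

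**Figure D1:**
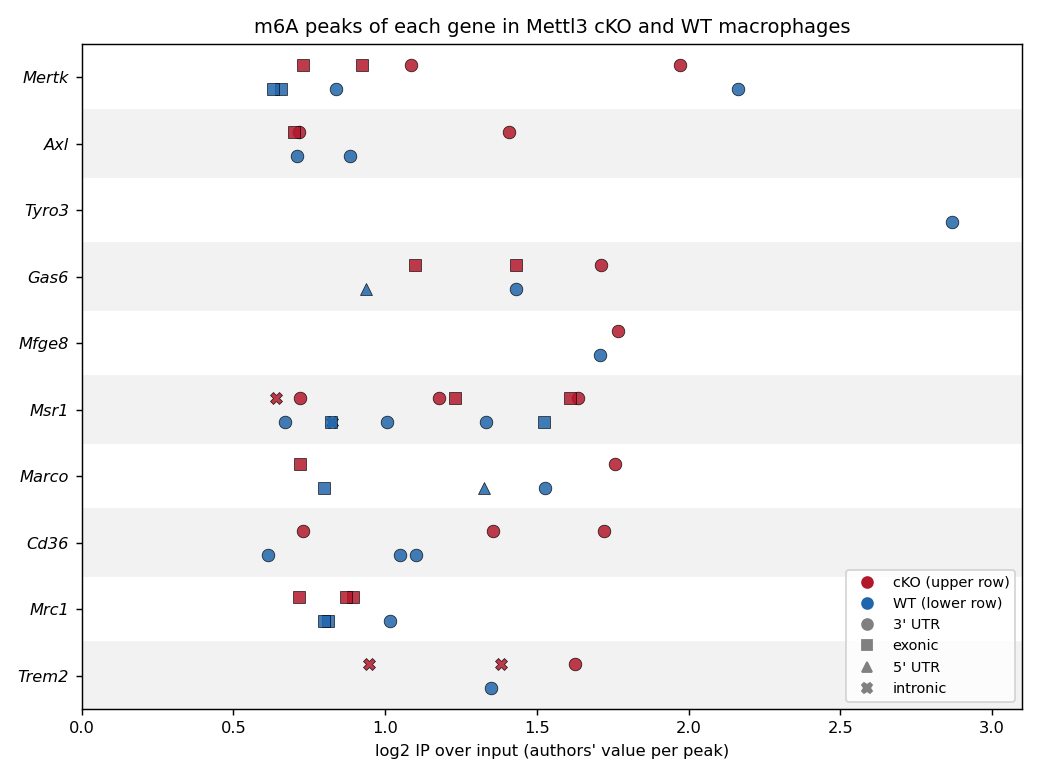
Enrichment of every peak of the 10 genes, as log2 IP over input (x axis), with the cKO in the upper and the WT in the lower row of each gene. Marker shapes give the region in the authors' annotation, and each point is 1 peak from 1 IP and 1 input library. Tyro3 has a WT point at 2.87 and no cKO point, and the 3 Cd36 points lie further right in the cKO.

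Mertk, the main receptor for clearance of dying cells by macrophages (chromosome 2, 128698956 to 128802894, plus strand), carried 4 peaks in each genotype. Its strongest peak lay around the stop codon, with a log2 of 1.97 in the cKO and 2.16 in the WT, above 79.3% and 81.7% of the peaks of each list. This peak (chr2:128794534-128802308 in the cKO) reached from 558 exonic bases before the stop codon to 641 after it, held 4 motifs, and is not in the list of differential peaks. The distal 3' UTR peak had a log2 of 1.09 in the cKO and 0.84 in the WT. Its 2 coding peaks had values of 0.92 and 0.73 in the cKO and of 0.66 and 0.63 in the WT. The first covered 675 exonic bases in the cKO and 100 in the WT. Mertk had its largest enrichment at the end of its coding sequence in both genotypes. The other 3 peaks had higher values in the cKO, by 0.27, 0.10 and 0.25. The 2 peaks behind the 0.10 shared only 25 bases and need not be the same site.

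Axl (chromosome 7, 25757273 to 25788705, minus strand), which is induced in inflamed macrophages, had 3 peaks in the cKO and 2 in the WT. Its peak at the 3' end of the transcript had a log2 of 1.41 in the cKO and 0.88 in the WT. A 3' UTR peak at 0.72 was called only in the cKO. Around the stop codon the WT had a peak of 500 exonic bases at 0.71, and the cKO a peak of 100 exonic bases in coding sequence at 0.70. Near the stop codon the peak lists thus gave like values over stretches of unequal length, while the differential table, over its own stretch of 225 exonic bases, did not.

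Tyro3 (chromosome 2, 119797733 to 119818104, plus strand) had 1 peak, in the WT. It lay over the stop codon, with a log2 of 2.87, and reached from 377 exonic bases before the stop codon to 222 after it. It was the most enriched peak of any of the 10 genes, above 90.6% of the WT list, in the transcript with the lowest input level of the 7 measured. A peak in the WT and none in the cKO was found for 5.46% of all genes with a peak.

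Gas6 (chromosome 8, 13465374 to 13494490, minus strand) had a peak from the stop codon region to the transcript end in both genotypes, at 1.71 in the cKO and 1.43 in the WT. Gas6 had 2 further coding peaks in the cKO, at 1.43 and 1.10, and a 5' UTR peak in the WT, at 0.94. The coding peak at 1.43 had an adjusted p of 0.0214 and the 5' UTR peak one of 0.0485, both for IP against input in the authors' deposited tables. Mfge8 (chromosome 7, 79133768 to 79149060, minus strand) had a single 3' UTR peak with the same ends in both lists (chr7:79133768-79134042), at 1.77 in the cKO and 1.71 in the WT. Neither bridging gene has a listed differential peak, and their input levels were not analysed here.

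Msr1 (chromosome 8, 39581685 to 39642673, minus strand), which takes up modified lipoproteins, had the most peaks, 6 in each genotype. Its 3 3' UTR peaks had values of 1.64, 0.72 and 1.18 in the cKO and of 1.33, 0.67 and 1.005 in the WT, in order from the 3' end. The main coding peak (chr8:39605359-39630396 in the cKO) had 1.23 in the cKO and 1.52 in the WT, and held 8 motifs in 822 exonic bases of the authors' transcript. A peak over the 5' exons (chr8:39632522-39642673) had 1.61 in the cKO and was not called in the WT. This peak held 0 motifs of the kind searched. A coding peak of 0.82 just downstream was called only in the WT. So along the gene the main coding peak was lower and the 3' end peak higher in the cKO, and the 5' exon peak was called only there. The authors assign the 3' UTR peaks to ENSMUST00000170091, and the coding and 5' exon peaks to ENSMUST00000026021. Msr1 has 2 protein-coding transcripts with different 3' exons. The most distal peak spans the ends of both, and the coding peak runs beyond the stop codon on the transcript with the longer 3' UTR.

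Marco (chromosome 1, 120474538 to 120505024, minus strand) had a peak over its stop codon at 1.76 in the cKO and 1.53 in the WT. This peak started 403 exonic bases before the stop codon in the cKO and 253 before it in the WT. Its coding peak stood at 0.72 in the cKO and 0.80 in the WT. A 5' UTR peak of 1.33 was called only in the WT.

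Cd36 (chromosome 5, 17781690 to 17888801, minus strand) had 3 peaks in each genotype, all in the 3' UTR and each overlapping its counterpart. From the 3' end they had values of 1.72, 1.35 and 0.73 in the cKO and of 1.10, 1.05 and 0.61 in the WT. Each was higher in the cKO, by 0.62, 0.31 and 0.12. The most distal of them lies on a transcript with a longer 3' UTR (ENSMUST00000170051) than the other peaks are assigned to, held 0 motifs of the kind searched and is not listed as differential.

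Mrc1 (chromosome 2, 14229392 to 14332057, plus strand) had no peak above 1.01 in either list, with 3 coding peaks of 0.89, 0.72 and 0.87 in the cKO, and with coding peaks of 0.81 and 0.80 and a 3' UTR peak of 1.01 in the WT. Its 3' UTR peak was called only in the WT, and it has no listed differential peak. Trem2 (chromosome 17, 48346401 to 48354147, plus strand) had 1 3' UTR peak in each list, at 1.63 in the cKO and 1.35 in the WT. In addition, the cKO list had 2 Trem2 peaks that the authors annotate as intronic, at 1.38 and 0.95. Both overlap an exon of 1 annotated retained-intron transcript of Trem2.

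**Figure D2:**
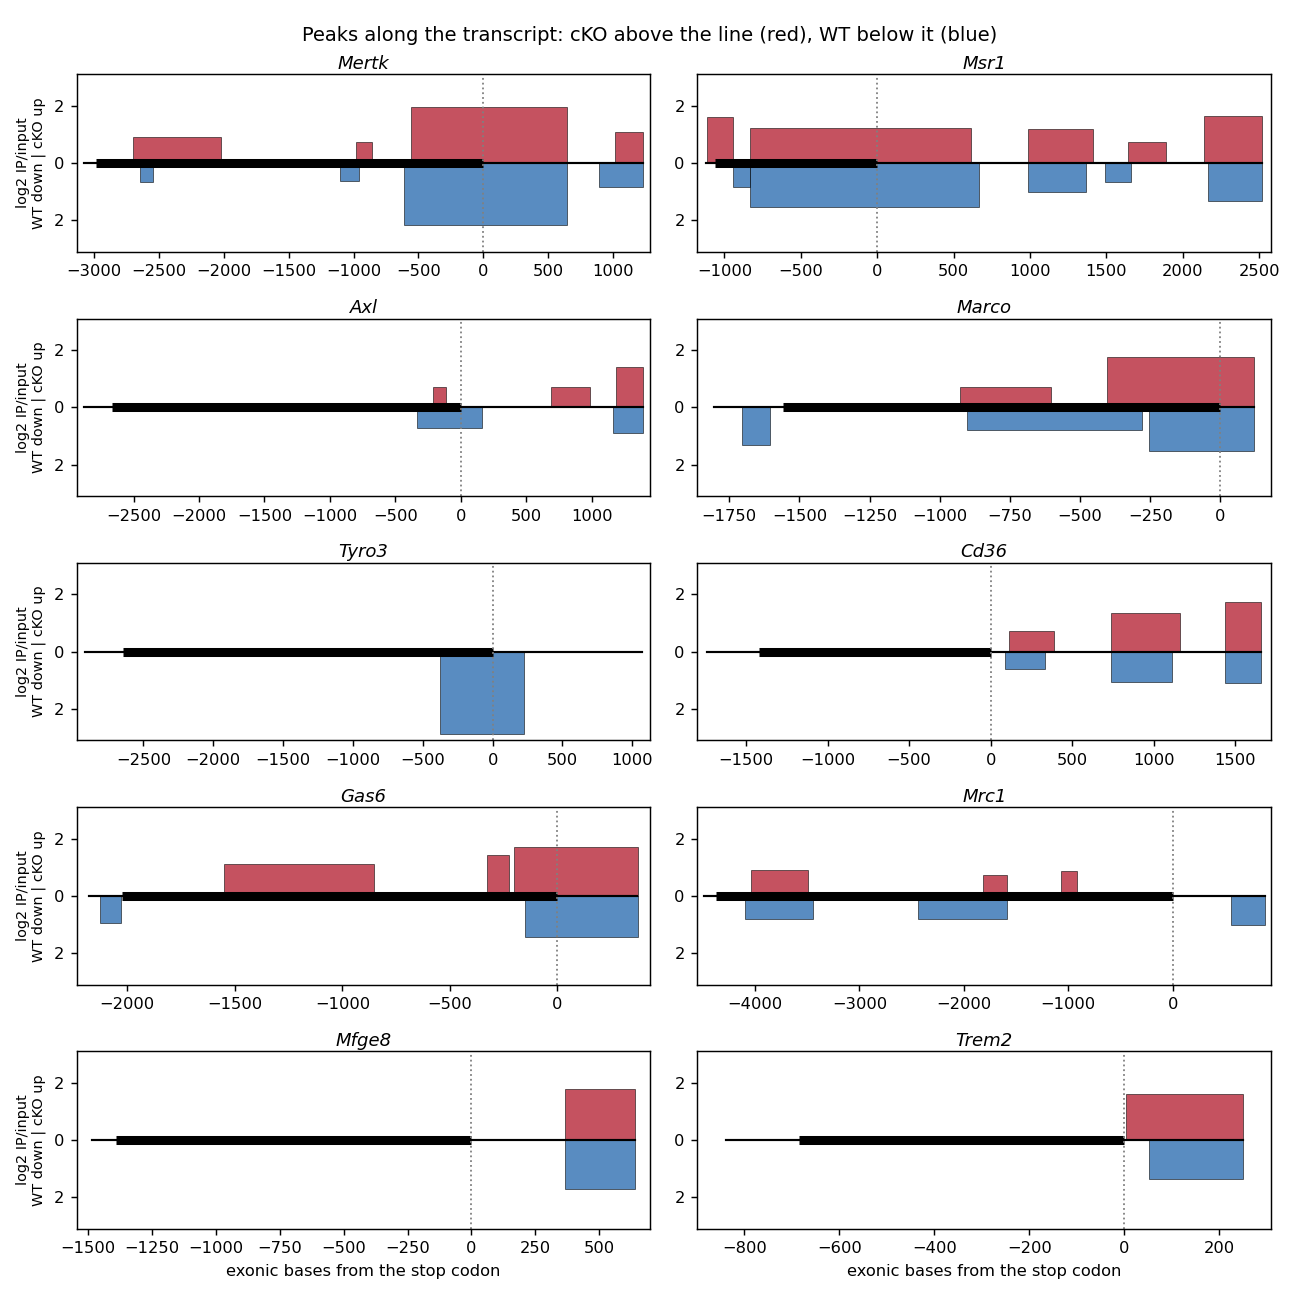
Peaks of the 10 genes along 1 transcript each, in exonic bases from the end of the stop codon (x axis), with bar height the log2 IP over input of the cKO above the line and of the WT below it. The thick line is the coding sequence and the thin line the UTRs. Peaks in introns are not drawn. Bars of Mertk, Marco and Gas6 and the main coding bar of Msr1 cross the stop codon in both genotypes. Those of Cd36, Mfge8 and Trem2 lie wholly after it.

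Peaks of both lists that overlap by at least 1 bp on the same strand, and with no other partner, were set side by side as pairs. Overlap was counted over the genomic span of the peaks, introns included, and not over exonic bases. The 10 genes had 19 such pairs, of which 14 (73.7%) were higher in the cKO. The median difference, cKO minus WT, was 0.12. Marco and Tyro3 had no such pair. A pair need not be the same site. The second Mertk coding pair and the middle Msr1 3' UTR pair, both among the 14, shared only 25 bases, and the Mertk pair held 2 motifs in the cKO and 0 in the WT. Of 14 pairs that overlapped by at least 50% of both peaks 11 were higher in the cKO (78.6%), against 52.8% of all 17809 such pairs. Over all 19387 pairs 54.8% were higher and the median difference was 0.04. The paired member peaks were weaker than most, with a median WT value of 0.88, against 1.32 over all pairs. Their WT values ran from 0.61 to 2.16, a range that holds most pairs and so matches strength only loosely. Among the 14813 pairs in that range of WT values, 62.6% had the higher value in the cKO, and the median was 0.09. The 5 pairs that were lower in the cKO were the Mertk stop codon peak (-0.19), the Msr1 coding peak (-0.29) and the Msr1 peak annotated as intronic (-0.18), a Mrc1 coding peak (-0.08) and the Axl peak near the stop codon (-0.01).

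The next question is which peaks differed between the genotypes by the authors' own test of the difference in IP over input. Of the 10 genes 7 had a listed differential peak, against 49.9% of all genes with a peak. A higher peak was listed for 6 (28.3% of all genes) and a lower peak for 3 (28.9% of all genes). Of their 12 listed peaks, 8 were higher and 4 lower in the cKO, against 48.9% higher of all listed peaks. Of these 12 peaks, 7 had an adjusted p below 0.05, by the authors' deposited table, and they were 5 higher and 2 lower peaks in 5 genes. They were 58.3% of the 12, against 53.3% of all listed peaks, and 30.8% of all genes have such a peak. An absolute difference of at least 1 was listed for 2 of the 12 (Msr1 and Tyro3), against 35.6% of all listed peaks. In 3' UTRs 6 of 7 listed member peaks were higher in the cKO, and in coding exons 2 of 5, against 51.5% and 41.7% of all listed peaks of these regions.

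The peaks that passed an adjusted p of 0.05 and were higher in the cKO lay in scavenger and lipid receptors. The Trem2 3' UTR peak rose to a log2 of 1.67 in the cKO, against 1.29 in the WT, a difference of 0.38 (authors' deposited table, adjusted p 1.31e-06). The Cd36 3' UTR peaks rose to 1.33 in the cKO, against 1.05 in the WT (authors' deposited table, adjusted p 0.00882), and to 0.78 in the cKO, against 0.61 in the WT (adjusted p 0.0439 there). The Marco peak over the stop codon rose to 1.73 in the cKO, against 1.44 in the WT (authors' deposited table, adjusted p 0.0337). The Msr1 peak over the 5' exons rose by the most, to 1.53 in the cKO, against 0.52 in the WT (authors' deposited table, adjusted p 0.000147).

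Lower peaks were fewer. The Msr1 coding peak fell to 1.14 in the cKO, against 1.46 in the WT, a difference of -0.32 (authors' deposited table, adjusted p 3.23e-09). The Tyro3 peak fell to -2.01 in the cKO, against 2.85 in the WT, a difference of -4.86 (authors' deposited table, adjusted p 0.00112). A negative value means that the IP was below the input in the cKO. This is the largest difference of the 12, and it comes from a transcript below 1 FPKM in both inputs, with an unknown number of reads behind it.

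The remaining 5 listed peaks did not pass an adjusted p of 0.05, by the authors' deposited table. Axl differed in both directions, with its 3' end peak at 1.36 in the cKO and 0.79 in the WT (authors' deposited table, adjusted p 0.0824) and its coding peak at 0.43 in the cKO and 1.02 in the WT (adjusted p 0.053 there). The Mertk coding peak stood at 0.93 in the cKO and 0.39 in the WT (authors' deposited table, adjusted p 0.102). The Msr1 3' UTR peak stood at 1.56 in the cKO and 1.25 in the WT (authors' deposited table, adjusted p 0.0775), and a short Msr1 coding peak at 0.57 in the cKO and 0.78 in the WT (adjusted p 0.174 there). Axl and Msr1 were the 2 genes with listed peaks in both directions, as 7.31% of all genes with a peak were.

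**Figure D3:**
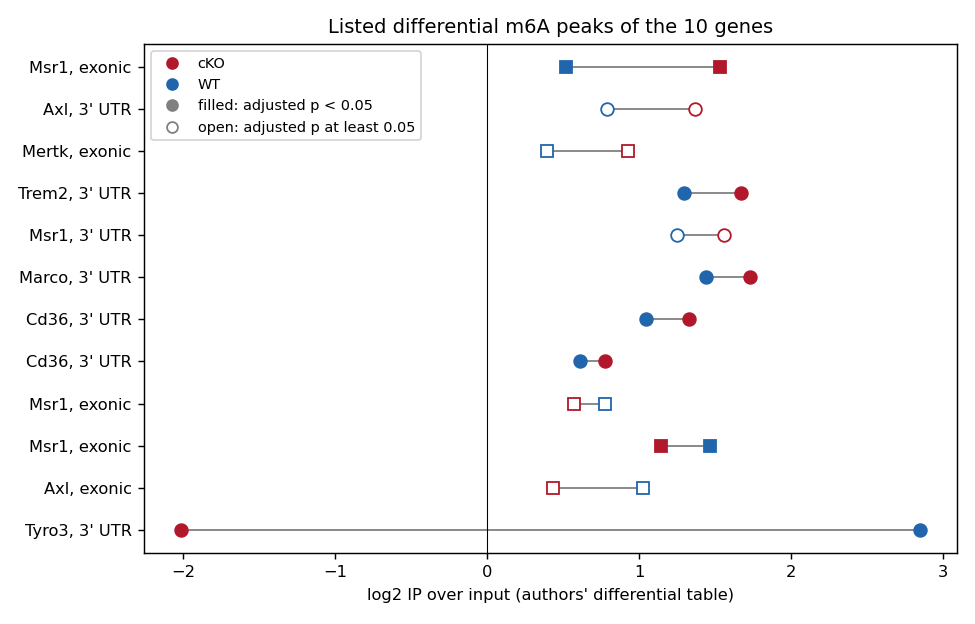
The 12 listed differential peaks of the 10 genes, with the log2 IP over input of the cKO and the WT (x axis) joined by a line and sorted by the difference cKO minus WT. Circles are 3' UTR peaks and squares exonic peaks, and filled symbols passed an adjusted p of 0.05, by the authors' deposited table. The Msr1 5' exon peak has the largest positive difference, at 1.01, and Tyro3 alone lies below 0 in the cKO.

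The last question is whether the transcripts themselves differed in the inputs. Mertk was the only one of the 6 genes with a mean of at least 1 FPKM that lay past 1.5-fold, with 6.29 FPKM in the cKO and 11.6 FPKM in the WT, or 54.3% of the WT value. Of 6079 genes at that level, 1.66% were at least 1.5-fold lower and 1.46% at least 1.5-fold higher in the cKO. The input difference of Mertk was -0.79 in log2(FPKM + 1), and 0.773% of the genes had a value as low or lower. In the authors' deposited table its p was 0.189 and its q was 1, so it did not pass their test. Among the 6 genes 4 lay below 0 on this scale, against 54.2% of all genes.

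The other receptors stayed within 1.5-fold. Axl had 10.6 FPKM in the cKO and 13.0 FPKM in the WT. Marco had 23.2 FPKM in the cKO and 27.4 FPKM in the WT, and Msr1 28.8 FPKM in the cKO and 29.9 FPKM in the WT. These 3 lay below their WT values, with differences of -0.27, -0.23 and -0.05. Cd36, the most abundant, had 162.6 FPKM in the cKO and 142.0 FPKM in the WT, and Trem2 27.2 FPKM in the cKO and 25.1 FPKM in the WT, differences of 0.19 and 0.11. Tyro3 was almost absent, at 0.251 FPKM in the cKO and 0.301 FPKM in the WT. The median difference of the 6 genes was -0.14, and that of all genes -0.02. All 7 had a q of 1 in the authors' deposited table.

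By level the order from Cd36 through Msr1 down to Axl, Mertk and Tyro3 was the same in both inputs, and only Trem2 and Marco changed places. With 1 library per genotype it is not known which neighbours in this order differ beyond the spread between cultures. Mfge8, Gas6 and Mrc1 have no listed differential peak, and their input levels were not analysed here. The deposited input values cover only genes with such a peak.

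**Figure D4:**
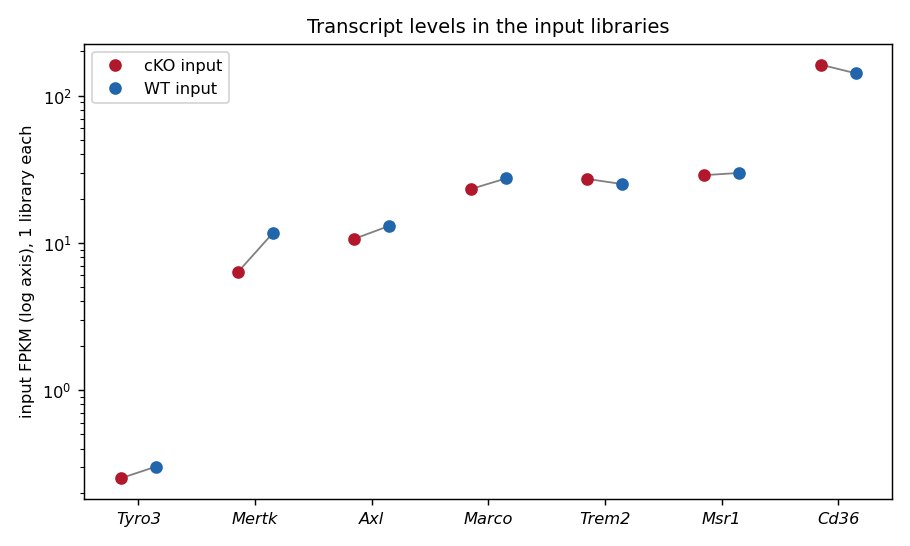
Input FPKM of the 7 genes with a value, on a log axis, with the cKO library on the left and the WT library on the right of each pair. Each point is 1 library. Mertk shows the steepest line, at 6.29 FPKM in the cKO and 11.6 FPKM in the WT, and Tyro3 lies below 1 FPKM in both.

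Set side by side, Mertk had the largest input difference, while its main peak was not listed as differential. Cd36 and Trem2 had higher 3' UTR peaks and slightly higher levels in the cKO, and Marco a higher peak and a slightly lower level. Msr1 had peaks in both directions at a nearly equal level. The input is the denominator of each enrichment value, and its part in these differences was not tested.

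Other genes of the same pathways were read from lists. The input q-values of the genes named below were all 1 in the authors' deposited table, so none of these levels passed its test. Of all listed peaks 48.9% were higher and 51.1% lower in the cKO, and no list was tested against other genes.

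Bridging and opsonin genes had 4 higher and 4 lower differential peaks, of which 4 and 1 passed an adjusted p of 0.05. Of their 10 genes 6 had an input value, and 2 lay past 1.5-fold, both lower in the cKO. They were C1qa and C1qc, subunits of the complement protein that opsonises dying cells. C1qa had 28.4 FPKM in the cKO and 73.1 FPKM in the WT, and C1qc 11.2 FPKM in the cKO and 20.8 FPKM in the WT. The 3' UTR peak of Thbs1, a thrombospondin that binds Cd36, fell to 2.02 in the cKO, against 2.53 in the WT in the authors' deposited table, and its coding peak rose to 0.88 in the cKO, against 0.64 in the WT.

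Other receptors for dying cells had 5 higher and 8 lower peaks, 5 and 6 of them at an adjusted p below 0.05. The endocytic receptor gene Lrp1 gave 4 of the 5 higher peaks, and it is counted again among the scavenger and lectin receptors. None of the 8 genes with a value, out of 16, was past 1.5-fold, and S1pr1, a sphingosine 1-phosphate receptor, was furthest from equal, at 12.02 FPKM in the cKO and 7.80 FPKM in the WT. A Stab1 peak annotated as intronic fell to -0.31 in the cKO, against 1.31 in the WT, by the authors' deposited table. Itgav, an integrin gene, had a 3' UTR peak that rose to 2.52 in the cKO, against 1.84 in the WT in the authors' deposited table. Of its 2 other listed 3' UTR peaks, both lower, 1 fell to 0.47 in the cKO, against 0.84 in the WT, and the other stood at 0.54 in the cKO and 0.86 in the WT (authors' deposited table, adjusted p 0.143). Engulfment and signalling genes had 5 higher and 11 lower peaks, 3 and 6 of them at an adjusted p below 0.05. Of the 11 with a value only Tgm2, a transglutaminase, was past 1.5-fold, at 102.1 FPKM in the cKO and 174 FPKM in the WT. Their largest peak difference, in a coding exon of Elmo1, did not pass, at -0.03 in the cKO and 1.51 in the WT in the authors' deposited table.

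Genes of don't-eat-me signals and of proteases that shed receptors had 1 higher and 7 lower peaks, 1 and 5 at an adjusted p below 0.05. All these peaks lay in 3 of the 6 genes, Sirpa, Adam17 and Cd47, and every listed peak of Sirpa was lower. These 3 were also the measured genes, and they stayed within 1.5-fold. A peak annotated as intronic in Adam17, whose protease sheds Mertk, fell to -0.28 in the cKO, against 2.81 in the WT in the authors' deposited table. Other scavenger and lectin receptors had 13 higher and 8 lower peaks, 10 and 7 at an adjusted p below 0.05. A coding peak of Cd163, the haemoglobin scavenger receptor, had values of 1.06 in the cKO and 5.38 in the WT in the authors' deposited table (adjusted p 0.0125). Cd163 had an input of only 0.0303 FPKM in the cKO and 0.121 FPKM in the WT, and no called peak in the cKO. Only Clec7a, the beta-glucan receptor, was past 1.5-fold among the 12 with a mean of at least 1 FPKM, at 87.6 FPKM in the cKO and 147.6 FPKM in the WT.

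Lipid-handling genes had 12 higher and 8 lower peaks, 10 and 5 at an adjusted p below 0.05, and the 13 of 16 with a value stayed within 1.5-fold. The lipoprotein lipase gene Lpl was furthest from equal, at 85.9 FPKM in the cKO and 114.3 FPKM in the WT. A 5' UTR peak of the fatty acid binding protein gene Fabp4 rose to 2.28 in the cKO, against -1.09 in the WT in the authors' deposited table. A coding peak of Nr1h3, the oxysterol receptor, fell to 0.14 in the cKO, against 1.65 in the WT in the authors' deposited table.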

How the data were processed

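The series holds 4 RNA libraries, an IP and an input for each genotype. The submitters' processing notes name mm10 as the build. They also name edgeR, StringTie, HOMER, HISAT2, fastp and ChIPseeker, without saying what each was used for; the peak caller is not given in the sources used here. Per the file headers, the deposited peak lists give log2 IP over input with its p-value, raw and adjusted. The authors' deposited differential table gives this log2 per genotype, the difference and its p-value. The deposited gene table gives FPKM of the inputs, as the authors made them, for genes with a listed differential peak. The genotype columns of the differential table were checked against the peak lists, at 1444 cKO and 1619 WT peaks with the same ends.

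Starts were written 1-based. Peaks were compared on the same strand at an overlap of at least 1 bp, or of 50% of both peaks, over the genomic span with introns. Peaks were placed on the authors' transcripts with GENCODE M21 (96.8% of cKO and 96.9% of WT peaks matched), and the transcript map uses the longest transcript listed for each gene. Input differences are log2(FPKM + 1), cKO minus WT, at a mean FPKM of at least 1, and the 1.5-fold limit is on that difference. Of 108 genes with both FPKM below 0.1 at most 2 shared a ratio, so the values show no whole-read steps. No further test was possible with 1 library per group. The members and gene lists, and the rule for named genes (all 10 members, and up to 4 genes per list by input difference and 2 by differential peak), were chosen with earlier results of these data known. Overlap, mapping and motif steps were tested on simulated data. Python 3.11.15, pandas 2.3.3 and numpy 2.4.6 were used.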

Additional observations from a re-analysis of the deposited data

Results flagged for a closer look

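By the authors' test of the difference in IP over input between the genotypes, 7 peaks of these genes passed an adjusted p of 0.05, by the authors' deposited table. Differences are cKO minus WT. They were the Msr1 5' exon peak (1.01) and coding peak (-0.32), the Trem2 3' UTR peak (0.38), the Marco stop codon peak (0.29), the Cd36 3' UTR peaks (0.28 and 0.17) and the Tyro3 stop codon peak (-4.86). Each rests on 1 library pair per genotype.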

How the results depend on the processing

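With the stricter limits, the 12 differential peaks became 7 at an adjusted p below 0.05 and 2 at an absolute log2 difference of at least 1 (Msr1 and Tyro3). At an adjusted p below 0.05 and a log2 of at least 1, the genes had 16 cKO and 13 WT peaks (57.1% and 50.0% of theirs, against 67.0% and 63.4% of all). Pairs that overlapped by at least 50% of both peaks had a median difference of 0.20. At a fold of 2, 0 genes were past the limit in the input, and the median input difference was -0.057 with no filter on low values, which adds Tyro3. With all 18 pentamers of the DRACH consensus 96.0% of member peaks in each list held a motif, against 95.0% of all cKO and 94.9% of all WT peaks. A stricter limit keeps fewer peaks or genes by construction. The motif searched is part of the DRACH consensus, so the share with a motif could not fall. The median input difference moved through the addition of Tyro3. For the median difference of the pairs the cause was not tested. The other 8 of 17 summary alternatives stayed within 1.5 times the values given, but these include the overlapping peaks, 14 at 50% against 21 in each list, and the genes with a differential peak, 5 at an adjusted p below 0.05 against 7. Of 14 alternatives for single genes 13 stayed close, and Tyro3 had -0.19 at a pseudocount of 0.1. No value changed direction. No paired analysis was possible because each group has 1 library, and no library could be left out. Unknown depth limits all low values, Tyro3 first.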

Other observations

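Position in the transcript was looked at after the values were seen. Member 3' UTR peaks that reached the annotated end of the gene in both lists were higher in the cKO in 6 of 6 pairs, in Axl, Cd36, Gas6, Mertk, Mfge8 and Msr1, with a median difference of 0.29 (0.06 to 0.62). Over all genes 66.0% of 4638 such pairs were higher, and their median was 0.15. The other member 3' UTR pairs were higher in 5 of 6, with a median of 0.14, against 52.9% of 7753 and 0.03 over all genes. They include Trem2 (0.28), whose peak reaches the end of its mapped transcript but not of the annotated gene. The split is thus by gene end and not by transcript end. Member pairs outside the 3' UTR were higher in 3 of 6, with a median of 0.00, against 49.3% of 6668 and -0.01 over all genes. In both sets the pairs at the gene end had the highest median.

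Only 2 member peaks share bases, over their genomic span, with an exon of another annotated gene. The first Mertk coding peak of the cKO overlaps Gm14011 on the other strand, and the first Mrc1 coding peak of the WT overlaps Mir511 on the same strand.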
